A study of Mus musculus with 2 samples.

Results

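The 37 genes described here carry out the response to interferon and the display of peptides on major histocompatibility complex (MHC) class I molecules. They were chosen by name and not by their values, and comprise 4 interferon receptor subunits, 6 transcription factors, 4 genes of RNA sensing, 17 effector genes and 6 genes of antigen presentation. All 37 were found among the 27998 genes of the count tables. The tables write symbols in capitals, such as IFI27, IFITM3 and BST2, and the usual mouse spelling (Ifi27, Ifitm3, Bst2) is used from here on. The counts come from 2 droplet-based single-cell RNA libraries of neural stem cells from the subventricular zone (SVZ), the stem cell niche in the walls of the lateral brain ventricles. One library, called young here, was made from C57BL/6 mice of 2 months, and the other, called aged, from C57BL/6 mice of 15 to 18 months. In each case SVZ tissue of 5 mice was combined and dissociated, and the cells were held in a proliferation medium before capture, so the values describe pooled, cultured cells. With 1 library per age, no test was possible, and age cannot be told apart from culture or library. All intervals are at 95% and cover counting error alone.

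Type I interferons bind a receptor of the subunits Ifnar1 and Ifnar2, and interferon gamma a receptor of Ifngr1 and Ifngr2. Kinases on these receptors switch on transcription factors, among them Stat2, which works with Irf9. The promoter elements through which the response acts are the interferon-stimulated response element (ISRE) and the gamma-activated site (GAS). The genes so induced block viral entry, translation and budding, and they also raise the supply of peptides to class I molecules. Stem cells of several tissues are known to hold some of these genes on without added interferon, and in the aged mouse SVZ interferon signalling has been linked to stem cell quiescence.

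After filtering, 2639 young cells with 58891207 unique molecular identifiers (UMIs, distinct captured transcripts) and 2527 aged cells with 60140272 UMIs were compared, and the median cell held 22951 and 23745 UMIs. Activated stem cell markers summed to 9114 counts per 1000000 UMIs (CPM) in the young and 7285 CPM in the aged library, and G2/M markers to 3188 and 3199 CPM, so stem cell markers and dividing cells were present in both. Defining markers of immune cells were at or near 0. A list of 12 microglia and macrophage genes summed to 5.09 CPM in the young and 4.34 CPM in the aged library, with Tmem119, C1qa, C1qb and C1qc at 0 UMIs in both. Most of that sum came from Cd68, a lysosomal protein gene, with 193 young and 202 aged UMIs, and P2ry12, with 96 and 42. A list of T cell genes gave 1 and 2 UMIs.

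Most of the 37 genes were detected at low levels, and few stood apart between the ages. A mean of at least 10 CPM over both libraries was reached by 14 of the 37 genes, and by 8178 of all 27998 genes. Of the other members, 12 lay between 1 and 10 CPM and 11 lay under 1 CPM. All 4 receptor subunits passed that minimum, as did 2 of 6 transcription factors, 0 of 4 RNA sensing genes, 5 of 17 effectors and 3 of 6 antigen presentation genes. Just below it stood Trim25, Tapbp and Bst2 with means of 4.88, 6.81 and 7.22 CPM, and just above it Ifit2, Eif2ak2 and Ifnar2 with 15.3, 17.0 and 19.7 CPM. Among the 14, Ifi27 alone was higher in the aged library by 1.5-fold or more and Ifitm3 alone lower, making 1 gene each way on a scale of log2 of CPM plus 1. Over all 8178 genes that passed the minimum, 0.721% were that much higher and 0.624% that much lower, 1.35% in all. No member reached 2-fold on this scale, as 0.306% of all genes did. The 14 genes divided evenly, with 7 higher and 7 lower, and their median log2 ratio was −0.02 beside 0.02 for all genes.

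**Figure D1:**
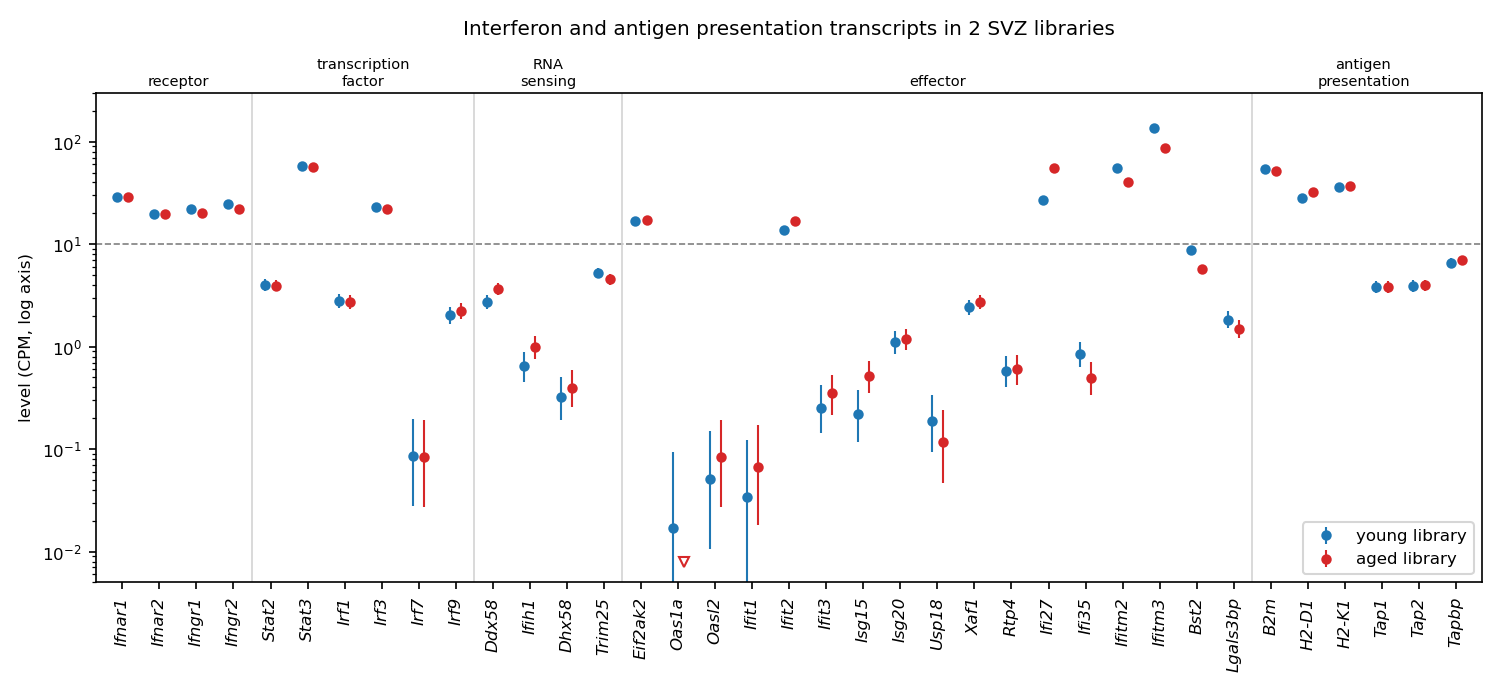
Level of each of the 37 genes in the young (blue) and aged (red) library, in CPM on a log axis, grouped by role. Bars are exact Poisson intervals at 95%, the dashed line marks the minimum of 10 CPM, and the open triangle marks Oas1a at 0 UMIs in the aged library. Ifi27 stands apart with the aged library higher, and Ifitm3, Ifitm2 and Bst2 with the young library higher, while most pairs lie side by side.

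The receptor subunits were present at similar levels in both libraries. Ifnar1 stood at 28.9 CPM in the young and 29.1 CPM in the aged library, a ratio of 1.01 (0.941 to 1.08). Ifnar2, which overlaps the gene model Gm21970 on the same strand so that its counts are uncertain, stood at 19.6 and 19.9 CPM. Ifngr1, which binds interferon gamma, stood at 22.0 and 20.3 CPM. Its partner Ifngr2 was at 24.4 and 21.8 CPM, 1.12-fold lower in the aged library (1.04 to 1.21). UMIs of Ifnar1 were found in 43.2% of young and 45.9% of aged cells at full depth, so its transcripts were not limited to a small set of cells.

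Among the transcription factors, Stat3, which answers to cytokines of the interleukin-6 family, and Irf3, which is activated downstream of nucleic acid sensors, passed the minimum. Stat3 stood at 58.2 CPM in the young and 56.1 CPM in the aged library (ratio 0.964, interval 0.919 to 1.01), and Irf3 at 23 and 22.1 CPM (0.959, 0.888 to 1.04). The intervals of both ratios included 1. Stat2 had 4.01 and 3.94 CPM, Irf1, a factor induced by interferon gamma, 2.78 and 2.71 CPM, and Irf9 2.02 and 2.24 CPM. Irf9 overlaps Rnf31 on the same strand, so its counts are uncertain. Irf7, an amplifier of the type I response that is itself induced by interferon, had 5 UMIs in each library.

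The cytosolic RNA sensors were all under the minimum, and so were their partners. Ddx58 (RIG-I), which detects RNA with a 5′ triphosphate, stood at 2.75 CPM from 162 young UMIs and 3.64 CPM from 219 aged UMIs, a ratio of 1.32 (1.08 to 1.63). The interval of this ratio lay above 1, although both levels were low. Ifih1 (MDA5), a sensor of long double-stranded RNA, had 38 young and 60 aged UMIs, and Dhx58 (LGP2), a regulator of both sensors, 19 and 24 UMIs. Trim25, a ubiquitin ligase that acts on RIG-I signalling, stood at 5.23 and 4.52 CPM.

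Effector genes held the clearest differences between the libraries, in both directions. Ifi27, an interferon-inducible gene for a small hydrophobic mitochondrial membrane protein, stood at 27.2 CPM in the young and 55.2 CPM in the aged library, a ratio of 2.03 (1.91 to 2.15). It lies at chr12:103434211-103440239 on the plus strand (GRCm38, GENCODE vM21), and part of its reads could belong to the related Ifi27l2a. Ifitm3, which restricts the fusion of enveloped viruses with cell membranes, stood at 135 and 87.6 CPM, 1.54-fold lower in the aged library (1.49 to 1.60). Its neighbour and paralog Ifitm2 stood at 55.7 and 40.8 CPM, 1.37-fold lower (1.30 to 1.44). Both belong to a cluster on the minus strand of chromosome 7, Ifitm3 at chr7:141009586-141010770 and Ifitm2 at chr7:140954837-140955987, and reads shared between such close copies make the division of counts between them uncertain. Bst2 (tetherin), which holds budding virions at the cell surface and lies at chr8:71534255-71537456, was under the minimum, with 515 young UMIs (8.74 CPM) and 342 aged UMIs (5.69 CPM). It was 1.54-fold lower in the aged library (1.34 to 1.77), but in cells thinned to a common 5000 UMIs its log2 ratio was −0.10 in place of −0.54.

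The remaining effectors were close between the libraries or nearly silent. Ifit2, which belongs to a family that binds viral RNA and limits its translation, stood at 13.6 CPM in the young and 16.9 CPM in the aged library, 1.24-fold higher (1.13 to 1.37). Eif2ak2 (PKR), the kinase that halts translation on sensing double-stranded RNA, stood at 16.7 and 17.4 CPM (ratio 1.04, 0.956 to 1.14). Xaf1, a partner of XIAP, had 142 young and 163 aged UMIs, and the secreted glycoprotein gene Lgals3bp had 108 and 90 UMIs. Isg20, an exonuclease gene, had 65 and 71 UMIs. Ifi35 had 50 young and 30 aged UMIs, a ratio of 0.588 (0.361 to 0.942). The strongly inducible members of the group were almost without counts. Ifit1 had 2 and 4 UMIs, Ifit3 15 and 21, the oligoadenylate synthetase family genes Oas1a and Oasl2 1 and 0 and 3 and 5, Usp18, which removes Isg15 from its targets, 11 and 7, and Rtp4 34 and 36. Close copies of Ifit3 and Oas1a, and gene models that overlap Rtp4 and Ifitm2 on the same strand, make these counts uncertain. Isg15, the ubiquitin-like modifier, had 13 young and 31 aged UMIs, a ratio of 2.34 (1.19 to 4.86) that rested on few cells.

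The promoters of 4 effectors are shown because Ifitm3, Ifitm2 and Bst2 were all high in the same clusters of cells, as given further on, while Isg15 was nearly silent, and all 4 hold the same kind of element. Among other members higher in those clusters in both libraries, with intervals above 1, Eif2ak2 and B2m held a match to it. H2-K1, Lgals3bp, Tapbp, Irf3, Trim25, Ifnar2 and Ifngr1 held none, and the promoter of Tap2 was not analysed. Each printed promoter runs from 250 bases before the RefSeq start (build GRCm38.p6) to 30 bases from it, 5′ to 3′ on the gene's minus strand. Capitals mark matches to the ISRE core GAAANNGAAA. The windows are chr7:141010715-141010994 for Ifitm3, chr7:140955932-140956211 for Ifitm2, chr8:71537443-71537722 for Bst2 and chr4:156200789-156201068 for Isg15.
Ifitm3: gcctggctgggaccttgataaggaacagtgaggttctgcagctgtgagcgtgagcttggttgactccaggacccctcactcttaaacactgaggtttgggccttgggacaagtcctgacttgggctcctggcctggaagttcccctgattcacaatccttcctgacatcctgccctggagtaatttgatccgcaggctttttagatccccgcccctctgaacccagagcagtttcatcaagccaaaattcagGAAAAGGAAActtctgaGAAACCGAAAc
Ifitm2: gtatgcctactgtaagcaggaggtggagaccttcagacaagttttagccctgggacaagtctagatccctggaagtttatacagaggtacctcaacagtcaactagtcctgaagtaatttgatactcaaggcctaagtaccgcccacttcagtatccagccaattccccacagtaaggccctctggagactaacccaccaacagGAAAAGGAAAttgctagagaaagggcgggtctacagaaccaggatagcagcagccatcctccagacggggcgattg
Bst2: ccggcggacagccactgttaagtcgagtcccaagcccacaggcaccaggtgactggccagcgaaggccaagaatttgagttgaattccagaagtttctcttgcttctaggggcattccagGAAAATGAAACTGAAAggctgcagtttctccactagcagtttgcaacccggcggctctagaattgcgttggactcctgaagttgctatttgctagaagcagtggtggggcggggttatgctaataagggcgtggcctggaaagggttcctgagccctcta
Isg15: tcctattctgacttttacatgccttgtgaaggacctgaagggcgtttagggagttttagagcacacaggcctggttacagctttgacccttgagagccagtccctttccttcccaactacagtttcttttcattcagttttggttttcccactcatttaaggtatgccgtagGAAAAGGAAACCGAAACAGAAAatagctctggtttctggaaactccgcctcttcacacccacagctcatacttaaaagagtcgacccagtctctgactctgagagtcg
The letters GAAAAGGAAA stand in Ifitm3, Ifitm2 and Isg15, and GAAACCGAAA in Ifitm3 and Isg15. In Ifitm3 the 2 matches begin 2 and 19 bases downstream of the start, and in Ifitm2 its 1 match begins 46 bases upstream. In Bst2 the 2 matches share bases and begin 130 and 124 bases upstream. In Isg15 the 3 matches form 1 run and begin 78, 72 and 66 bases upstream. The GAS letters TTCNNNGAA occur once in Ifitm3 and once in Bst2, each time sharing bases with an ISRE match.

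Promoters of 32 of the 37 genes were in the RefSeq table, and those of Ifi27, Dhx58, Usp18, Rtp4 and Tap2 were not analysed here. The ISRE core GAAANNGAAA, or TTTCNNTTTC for the other strand, occurred from 250 bases before to 50 bases after the start in 12 of the 32 genes (37.5%), against 1079 of 27025 genes (3.99%). The GAS core TTCNNNGAA, which reads the same on either strand, occurred in 10 of 32 (31.2%) against 9.55% of all genes, and the letters of both cores can share bases. By role, the ISRE core was found in 8 of 14 effectors, 2 of 3 RNA sensing genes, 1 of 6 transcription factors (Stat2), 1 of 5 antigen presentation genes (B2m) and 0 of 4 receptors. Among the members under 1 CPM it was found in 5 of 8, and among those that passed the minimum in 4 of 13. Such matches describe letters and do not show binding.

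The class I pathway was expressed and nearly level between the libraries. B2m, the light chain of every class I molecule, stood at 53.7 CPM in the young and 51.8 CPM in the aged library (ratio 0.965, 0.918 to 1.01). The heavy chain gene H2-K1 (chr17:33996017-34000347, minus strand) stood at 35.8 and 37.2 CPM (1.04, 0.980 to 1.10). H2-D1 (chr17:35262730-35267499, plus strand) stood at 28.5 and 32.3 CPM, with the aged library 1.13-fold higher (1.06 to 1.21). The heavy chain genes are close copies of each other and of the H2-Q genes, so the division of their counts is uncertain. Tap1 and Tap2, which form the transporter that carries peptides into the endoplasmic reticulum, stood at 3.80 and 3.84 CPM and at 3.89 and 3.97 CPM. Tapbp (tapasin), which bridges that transporter to class I molecules and overlaps Zbtb22 on the same strand, stood at 6.59 and 7.03 CPM. All 3 loading genes had ratios whose intervals included 1.

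The cells of both libraries were clustered together with all 37 genes and the further interferon genes left out, so that none of these genes defined the clusters, although genes that vary with them may have. The 12 clusters are given by number, and 11 were deep. Cluster 12 was shallow, with medians of 3126.5 and 3687 UMIs. Clusters 6, 8, 9 and 10 shared a high level of Gja1, which encodes the gap junction protein connexin 43 of astrocytes and neural stem cells, at 10 CPM or more in both libraries. This division was made after the values had been seen. In cluster 6, led by Crispld2, Pdlim4 and Slc4a4, 11 of 18 astrocyte and quiescent stem cell markers were raised, while clusters 8, 9 and 10 had 2, 3 and 3 of them raised. Cluster 10 had raised G2/M markers, so these clusters include dividing cells. They held 881 young and 604 aged cells, and the other 7 deep clusters 1658 and 1837. Anxa3, a leading gene of clusters 8 and 9, itself stood at 103 CPM in the young and 27.5 CPM in the aged library, so cluster sizes are given without being read as a change with age.

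Ifitm3, Ifitm2, Bst2 and H2-K1 were higher in the clusters with high Gja1, in both libraries. Ifitm3 stood at 256 to 363 CPM over those 4 clusters and 31.9 to 50.8 CPM over the other 7 deep clusters in the young library, and at 205 to 267 and 19.3 to 38.7 CPM in the aged library. The ranges did not overlap. The division was made with the values known, and the share of all genes with ranges apart was not computed. Summed over cells, Ifitm3 stood at 290 against 38.2 CPM in the young library, a ratio of 7.57 (7.14 to 8.03). In the aged library it stood at 235 against 30.4 CPM, a ratio of 7.76 (7.29 to 8.27). Bst2 followed with 18.0 against 2.82 CPM (6.38-fold, 5.12 to 8.01) and 15.4 against 1.91 CPM (8.07-fold, 6.27 to 10.5). For Ifitm2 the levels were 94.7 against 31.3 CPM in the young and 82.1 against 24.6 CPM in the aged library, 3.02-fold and 3.34-fold higher. Lgals3bp was higher there too, at low levels of 2.96 against 1.14 CPM (2.59-fold, 1.73 to 3.92) and 3.35 against 0.767 CPM (4.37-fold, 2.79 to 6.93). H2-K1 stood at 52.3 against 25.5 CPM and 54.6 against 30.5 CPM, 2.05-fold and 1.79-fold higher. Its cluster ranges were 47.6 to 59.5 against 22.6 to 34.7 CPM in the young and 45.6 to 65.8 against 24.8 to 44.7 CPM in the aged library. The aged ranges were apart by less than counting error, with intervals of 38.6 to 53.5 CPM in cluster 10 and 37.7 to 52.7 CPM in cluster 11.

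Other class I genes did not share that pattern to the same degree. H2-D1, the other heavy chain gene, stood at 27.4 against 29.1 CPM in the young library, a ratio of 0.941 (0.851 to 1.04), and at 31.1 against 32.7 CPM in the aged library. B2m lay between, at 61.5 against 48.7 CPM (1.26-fold, 1.18 to 1.36) and 66.4 against 46.4 CPM (1.43-fold, 1.33 to 1.54), and its cluster ranges overlapped. Eif2ak2 was 1.49-fold and 1.81-fold higher in the clusters with high Gja1. In the opposite direction, Ifit2 stood at 8.58 against 16.8 CPM and 10.4 against 19.5 CPM, 1.96-fold and 1.88-fold higher in the other clusters, and it was highest in cluster 1, led by replication histone genes, at 23.3 CPM in the young and 25.9 CPM in the aged library. Ifi27 differed little, at 26.8 against 27.3 CPM and 57.1 against 54.1 CPM.

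Of the 14 genes over the minimum, 3 were higher by 1.5-fold or more in the young clusters with high Gja1 and 1 was lower, as were 4.05% and 5.04% of all genes. In the aged library 4 were higher and 1 lower, against 4.30% and 4.55% of all genes. The medians of the 14 were 0.24 and 0.20 on the log2 scale, beside −0.02 and −0.05 for all genes. Over all 11 deep clusters, 5 members varied at least 2-fold between their highest and lowest cluster in both libraries, namely Eif2ak2, Ifit2, Ifitm2, Ifitm3 and H2-K1. The other 9 stayed within that range in at least 1 library. The share of all genes that varied this much was not computed, so the count describes these members alone. Ifngr2 was highest in cluster 4 in the young library, at 35.4 CPM, and lowest in cluster 10, at 16.6 CPM.

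**Figure D2:**
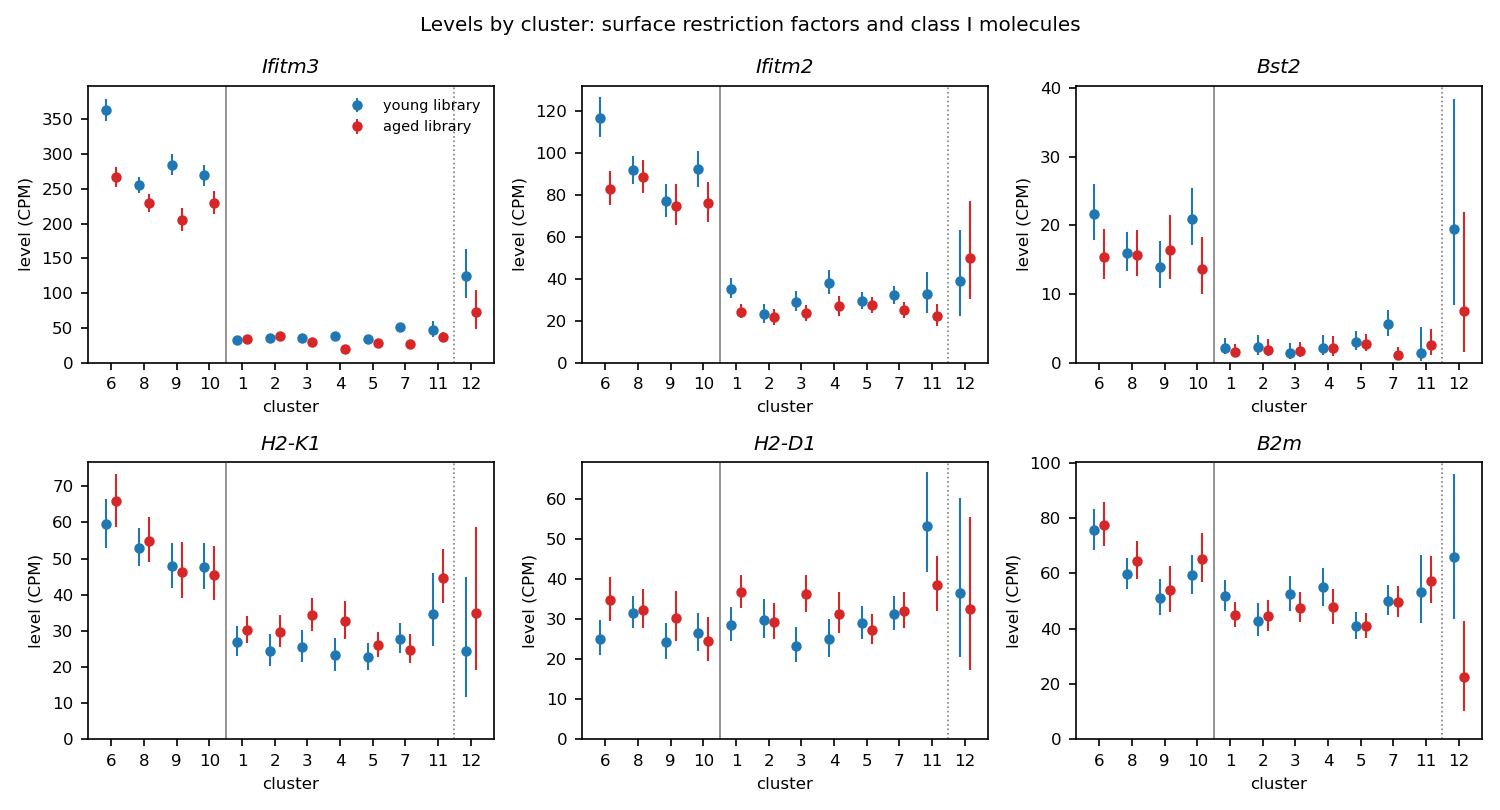
Levels of Ifitm3, Ifitm2, Bst2, H2-K1, H2-D1 and B2m by cluster in the young (blue) and aged (red) library, in CPM, with exact Poisson intervals at 95%. The 4 clusters left of the solid line have Gja1 at 10 CPM or more, and cluster 12, right of the dotted line, is shallow. Ifitm3, Ifitm2, Bst2 and H2-K1 are higher left of the line, while H2-D1 peaks in cluster 11 of the young library at 53.2 CPM.

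The age difference of Ifi27 ran through every cluster. Its level was higher in the aged library in 12 of 12 clusters, by 1.69-fold to 2.32-fold, and all 12 intervals lay above 1. In cluster 8, for example, it stood at 26.4 CPM in the young and 61.3 CPM in the aged library, and in cluster 4 at 35.6 and 71.6 CPM. Within the clusters with high Gja1 the aged library was 2.13-fold higher (1.92 to 2.36) and in the other deep clusters 1.98-fold higher (1.84 to 2.14).

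For Ifitm3 the difference varied between clusters. The ratio of aged to young ran from 0.507 to 1.10 and was 0.648 over all cells, and clusters 4, 7 and 12, at 0.507, 0.538 and 0.583, were farther apart than all cells together. It was lower in the aged library in 10 of 12 clusters, with 8 intervals below 1. Within the clusters with high Gja1 it was lower in aged cells by 1.23-fold (1.18 to 1.28) and in the other deep clusters 1.26-fold lower (1.17 to 1.36), against 1.54-fold over all cells. With every cluster weighing the same in both libraries its log2 ratio was −0.37 in place of −0.62, no longer 1.5-fold, and at a mitochondrial limit of 20% per cell it was −0.38. Clusters with high Gja1 made up 33.4% of young and 23.9% of aged cells, shares that rest in part on genes such as Anxa3 that themselves differed. Ifitm2 was lower in 11 of 12 clusters, and Bst2 in 9 of 12, with 5 and 3 intervals below 1. Over all 37 genes and 12 clusters, 28 of 400 cluster ratios with any UMI had an interval above 1 and 23 one below 1. Of the 28, 12 were those of Ifi27. No such count was made over all genes, so whether these numbers are unusual was not tested.

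**Figure D3:**
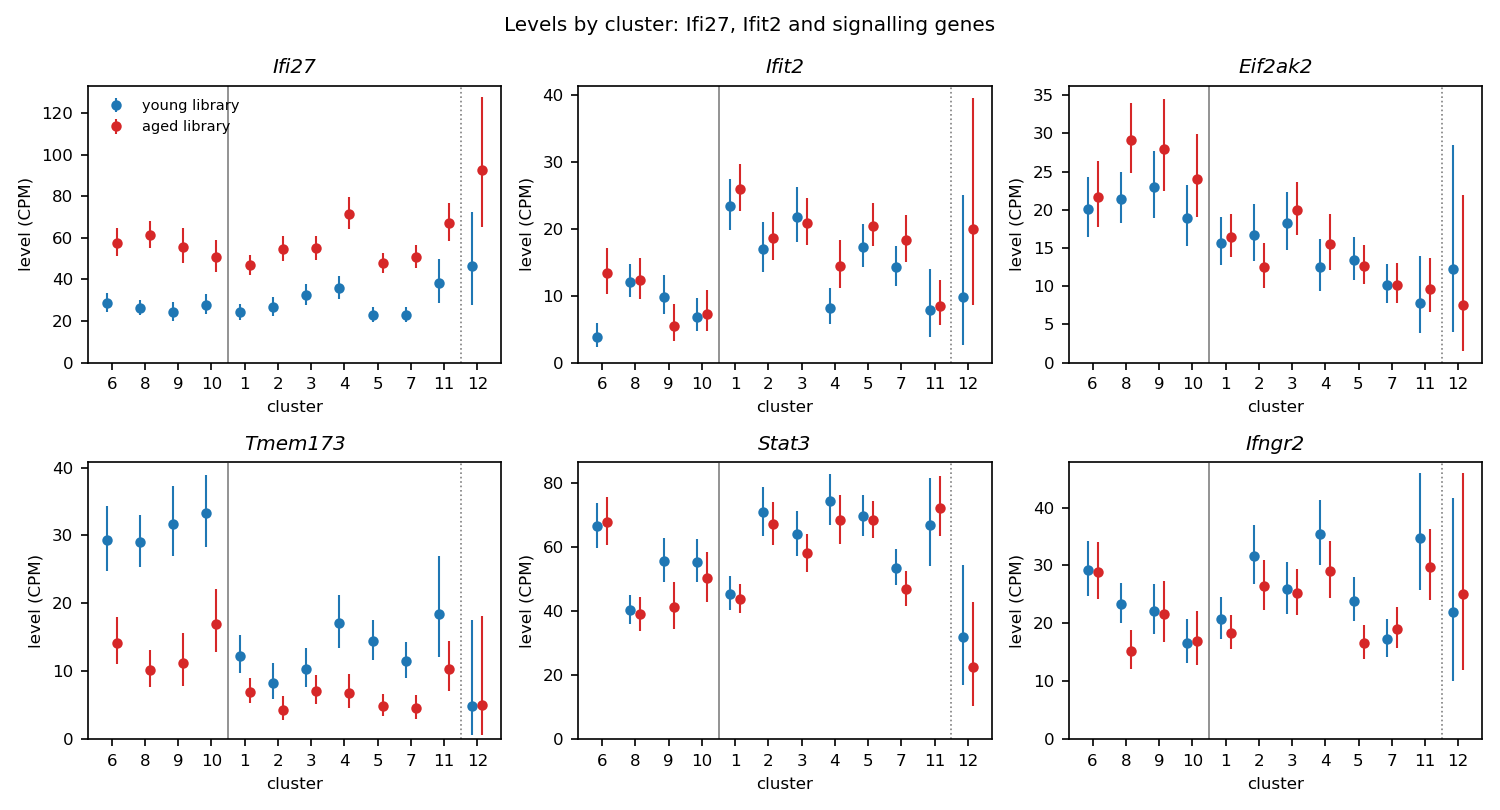
Levels of Ifi27, Ifit2, Eif2ak2, Stat3, Ifngr2 and the DNA sensing adaptor gene Tmem173 by cluster in the young (blue) and aged (red) library, in CPM, with exact Poisson intervals at 95% and clusters ordered as in the plot of Ifitm3. The aged library is higher for Ifi27 in all 12 clusters and lower for Tmem173 in 11 of 12, and Ifit2 is highest in cluster 1.

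Shares of cells with a UMI were compared after every cell was thinned to 5000 UMIs, which left out 343 young and 263 aged shallower cells. Ifi27 was found in 12.2% of young cells (exact Clopper-Pearson interval 10.9 to 13.6) and 25.1% of aged cells (23.3 to 26.9). Without thinning the shares were 35.1% and 62.0%. The higher aged level was thus spread over many cells, and the highest cell held 12 young or 23 aged UMIs. Ifitm3 was found in 30.1% of young (28.2 to 32.0) and 21.2% of aged cells (19.6 to 23), or 49.5% and 42.0% without thinning. Within the clusters with high Gja1 the thinned shares were 61.7% and 53.6%, and in the other deep clusters 14.0% and 11.0%.

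Class I genes were found in similar shares of thinned cells at both ages. B2m was found in 23.6% of young and 22.8% of aged cells, H2-K1 in 14.7% and 15.3% and H2-D1 in 13.1% and 14.4%, with overlapping intervals for each gene. H2-K1 was found in 22.8% of young and 23.2% of aged cells of the clusters with high Gja1 and 10.6% and 12.7% of the others. Stat3 was found in 24.6% of cells in both libraries. Bst2 was found in 3.05% and 2.87%. No cell type that should lack these genes was found in the cultures, so shares of immune and blood cell genes are given beside these. Cd68 was found in 1.31% of young and 1.28% of aged thinned cells and P2ry12 in 0.653% and 0.398%, below the shares of Bst2. C1qa, Csf1r, Tyrobp, Cd74 and Hbb-bs had no UMI in any thinned cell, which allows a share of up to 0.131% of young and 0.133% of aged cells.

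**Figure D4:**
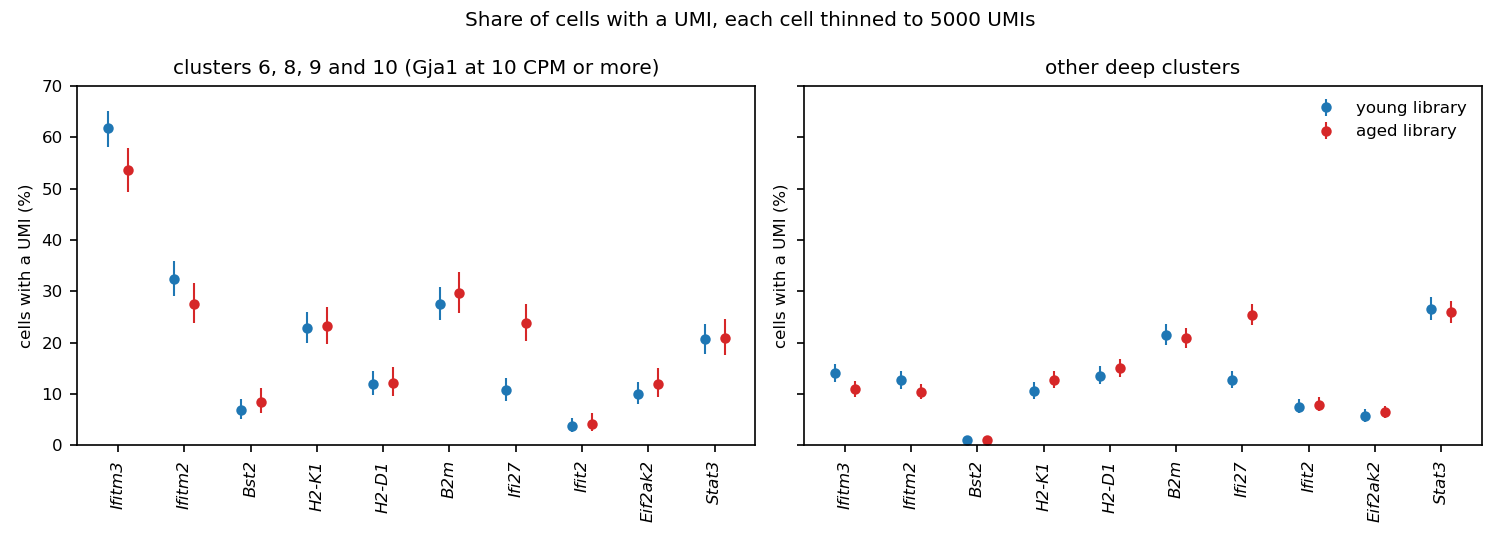
Share of cells with at least 1 UMI of each of 10 genes, in percent, after every cell was thinned to 5000 UMIs, in the clusters with high Gja1 (left) and the other deep clusters (right), with exact Clopper-Pearson intervals at 95%. Ifitm3 is found in 61.7% of young and 53.6% of aged cells on the left and 14.0% and 11.0% on the right, and Ifi27 is found in more aged than young cells on both sides.

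The strongly inducible genes were examined cell by cell, since summed counts do not show whether a few cells respond. For 10 of them (Isg15, Ifit1, Ifit3, Ifih1, Oasl2, Oas1a, Usp18, Rtp4, Irf7 and Dhx58), chosen after their values had been seen, 95.1% of young and 94.5% of aged cells held no UMI at all. Ifi35, the remaining member under 1 CPM, was not among the 10, and it went the other way, with 50 young and 30 aged UMIs. In the young library 0 of 2639 cells held 4 or more of their UMIs, which allows a share of up to 0.114%, and the highest cell held 3. In the aged library 5 of 2527 cells did, and these 5 held 49 of the 193 UMIs. Without them the aged total was 144 UMIs (2.40 CPM), beside 141 UMIs (2.39 CPM) in the young library, and Isg15 had 13 UMIs in each library. These cells were picked by the same sum and no young cell was left out, so this step could only lower the aged total.

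The aged cells richest in these transcripts carried different members of the response. The first, in cluster 8, held 10 UMIs of Ifih1, 7 of Isg15, 2 of Ifit1 and 8 of Cxcl10, the gene of a chemokine that attracts T cells. The second, also in cluster 8, held 7 UMIs of Isg15, 5 of Ifit3 and 17 of Gbp2, a guanylate-binding protein gene induced by interferon gamma. The third, in cluster 10, held 5 UMIs of Rtp4. The fourth, in cluster 8, and the fifth, in cluster 4, held 5 and 4 UMIs of the induced genes. The 5 cells held 39600, 53736, 40428, 35725 and 17674 UMIs in all, against an aged median of 23745 over all cells. The aged medians of their clusters were 33511 in cluster 8, 39107 in cluster 10 and 18888.5 in cluster 4, and whether these cells are doublets was not tested. The 12 microglia genes summed to 1 UMI in the first cell and 0 in the other 4, and T cell genes to 0 in all 5. Such cells were not limited to the aged library, since 4 of 1472 young and 4 of 1404 aged cells with 10 to 20% mitochondrial UMIs, which the filter removed, also held 4 or more.

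**Figure D5:**
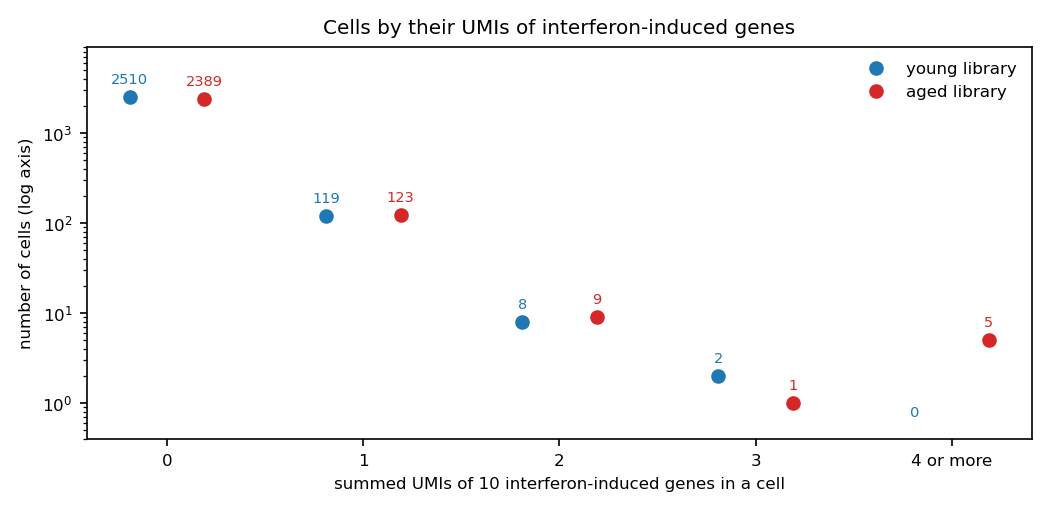
Number of cells, on a log axis, by their summed UMIs of 10 interferon-induced genes in the young (blue) and aged (red) library. Most cells hold none (2510 young and 2389 aged), and 4 or more are held by 0 young and 5 aged cells.

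Further genes of the pathway, from a list of 93 of which 91 were found, were compared in the same way. Of these, 18 passed the minimum. In the aged library 0 of them were higher by 1.5-fold or more and 1 was lower, with a median log2 ratio of 0.05. That 1 was Tmem173 (STING), the adaptor through which cytosolic DNA triggers interferon, at 19.4 CPM in the young and 7.96 CPM in the aged library, 2.44-fold lower (2.19 to 2.72). It was lower in 11 of 12 clusters, with 10 intervals below 1, and it too was higher in the clusters with high Gja1, at 30.6 against 12.5 CPM in the young and 12.9 against 6.09 CPM in the aged library. Its kinase Tbk1 stood at 18.8 and 17.0 CPM.

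The kinases that carry the signal from the receptors were present and close between the libraries. Jak1 stood at 66.3 CPM in the young and 69.1 CPM in the aged library, and Tyk2 at 3.26 and 2.96 CPM. Among the pathway genes over the minimum, the largest ratios after Tmem173 were those of Zc3hav1, an antiviral zinc finger protein gene, at 13.7 and 16.8 CPM (1.22-fold higher), and of the RNA editing enzyme gene Adar, at 11.0 and 12.8 CPM (1.16-fold higher). Irf2 stood at 23.8 and 26.5 CPM, Gbp7 at 22.2 and 19.2 CPM and Gbp3 at 12.3 and 10.9 CPM. In the antigen processing branch, the immunoproteasome subunit gene Psmb10 stood at 39.7 and 41.0 CPM, but Psmb8 at 2.07 and 2.36 CPM and Psmb9 at 1.44 and 1.03 CPM. Nlrc5, the activator of class I genes, had 5 and 4 UMIs, and Cd74, the invariant chain of class II molecules, 0 and 1.

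The classical induced genes of that list were low. Ifnb1, the gene of interferon beta, had 0 UMIs in both libraries, which allows up to 0.0509 CPM in the young and 0.0499 CPM in the aged library. Mx1 had 1 young and 0 aged UMIs, Rsad2 49 and 46, and Cxcl10 47 and 51, of which the first induced aged cell held 8. Some low genes differed between the libraries, in both directions. Those named here were chosen after their values were seen, and not all are named. Cmpk2, a mitochondrial nucleotide kinase gene induced by interferon, had 120 young and 189 aged UMIs, a ratio of 1.54 (1.22 to 1.96), and was higher in aged cells in 10 of the 11 clusters where it was found. Ifi27l2a, the relative of Ifi27, had 31 and 70 UMIs (2.21, 1.43 to 3.49), and the kinase gene Ikbke 28 and 67 (2.34, 1.49 to 3.78). Gbp2 had 20 and 37 UMIs (1.81, 1.02 to 3.29), and 17 of its aged UMIs lay in 1 cell. Lower in the aged library were Il10rb with 339 and 216 UMIs (0.624, 0.524 to 0.742) and Tlr4 with 70 and 44 (0.616, 0.412 to 0.910). H2-DMa had 161 and 125 UMIs (0.760, 0.597 to 0.966) and Pml 404 and 335 (0.812, 0.700 to 0.941). In all, 48 of the 91 genes were under 1 CPM and 13 had no UMI in either library.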

How the data were processed

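Gene expression was measured in 1 young and 1 aged library prepared by the 10x Genomics 3′ v3 protocol, as the labels say. The authors deposited UMI counts that had not been normalized, and the submitters' processing notes name Cell Ranger 3.0.2 and the build mm10. The gene annotation behind the counts is not given in the sources used. Counts of 3′ ends do not separate transcripts of one gene.

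Barcodes were kept if they had 1000 or more detected genes and no more than 10% mitochondrial UMIs (51.2% of 5151 young and 53.4% of 4731 aged barcodes). Scrublet in scanpy 1.11.5, run at an expected rate of 0.06, called 0.415% of young and 0.394% of aged cells, and these 11 and 10 cells were left out. At such a low rate most doublets were probably missed. The libraries shared 4 barcodes. UMIs were summed over cells and given as CPM, with exact Poisson intervals for levels, conditional binomial intervals for ratios and Clopper-Pearson intervals for shares (scipy 1.17.1), and 3 UMIs were taken as the limit that a count of 0 allows. Log2 ratios used a pseudocount of 1 CPM. Counts of genes past 1.5-fold or 2-fold follow a rule of size. Cells were clustered with leidenalg 0.10.2 at resolution 1, on 20 neighbours in 30 principal components of 2000 variable genes, without integration.

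The members, lists and rules were chosen with earlier results of these data known. The members with full values are those with a mean of at least 10 CPM, and every other member is given by its counts or CPM. Of the pathway genes, 12 were fixed by name and the 8 with the largest ratios among those over the minimum were added, with 1 gene falling under both. A gene that this rule picks is not reported here. Gene positions come from GENCODE vM21 by gene identifier and promoter sequences from RefSeq. The code was tested on simulated data. Alternatives to the cell filters, scaling, depth, minimum level, pseudocount, cluster mix and clustering are given in the closing section.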

Additional observations from a re-analysis of the deposited data

Results flagged for a closer look

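The age difference of 2 of the 37 genes changed direction between clusters, with whole intervals above 1 in some clusters and below 1 in another, and the difference between clusters itself was not tested. Ifit2 was higher in the aged library in cluster 4, led by Stmn4 and Fbxo32 (ratio 1.78, interval 1.18 to 2.73), and in cluster 6, led by Crispld2 and Pdlim4 (3.50, 2.09 to 6.10), where it stood at 3.83 CPM from 20 young UMIs and 13.4 CPM from 64 aged UMIs. It was lower in cluster 9, led by Emp1 and Gja1 (0.558, 0.300 to 0.989), at 9.82 CPM from 47 young UMIs and 5.47 CPM from 17 aged UMIs. H2-D1 was higher in the aged library in cluster 1 (1.28, 1.07 to 1.55), cluster 3 (1.55, 1.24 to 1.94) and cluster 6 (1.38, 1.09 to 1.75). It was lower in cluster 11, led by Trib3, Nupr1 and Chac1 (0.723, 0.538 to 0.977), where all 8 markers of the integrated stress response were raised and H2-D1 stood at 53.2 CPM in the young and 38.4 CPM in the aged library. They were picked from 400 cluster ratios with any UMI, each with an interval at 95%. Among the other pathway genes, Jak1 was higher in the aged library in cluster 2 (1.23, 1.06 to 1.43) and cluster 7 (1.16, 1.02 to 1.33) and lower in cluster 8 (0.817, 0.708 to 0.941).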

How the results depend on the processing

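No paired analysis was possible because each age has 1 library. The count of members at least 1.5-fold apart, 2 in the report (Ifi27 and Ifitm3), was 1 with up to 20% mitochondrial UMIs allowed per cell, with no cell filter, with all clusters weighing the same and with the shallow cluster also left out (Ifi27 each time), and 1 with a minimum of 50 CPM (Ifitm3). It was 0 in the cells with 10 to 20% mitochondrial UMIs alone. The last setting, the one without the shallow cluster and the one without the aged cells rich in induced transcripts were chosen after seeing the data. Over all settings the log2 ratio of Ifi27 ranged from 0.56 to 1.11, that of Ifitm3 from −0.65 to −0.26 and that of Ifitm2 from −0.47 to −0.23, with no change of sign. The cause of these shifts was not tested. The median log2 ratio of the members kept within 0.05 of its reported value. The 37 genes summed to 2.91 UMIs per young and 2.77 per aged cell at 5000 UMIs, and to 5.72 and 5.49 at 10000 UMIs. The number of members varying 2-fold between clusters was 5 at a coarser resolution and with interferon genes allowed in the clustering. Depth limits the 11 members under 1 CPM, whose ratios rest on few UMIs.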
